A study of Mus musculus with 4 samples.

Results

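The genes described here encode the carriers that move amino acids across cell membranes, taken as the solute carrier (Slc) families 1, 3, 6, 7, 36, 38 and 43. A member was any gene with a symbol in one of these families and at least 1 probe set that the platform annotation assigned to that gene alone. This gave 63 of 18193 genes, measured by 125 of 34945 probe sets, and the brightest probe set of a gene, by mean log2 signal over the 4 arrays, stood for it. Values are MAS5 signals, a linear intensity per probe set. The arrays held total RNA of the mouse embryonic stem (ES) cell line CGR8, 2 arrays of cells without leukemia inhibitory factor (LIF) and 2 of cells with LIF at 1000 U/ml, after 2 days. All cells grew on gelatin in Glasgow Minimum Essential Medium with knock-out serum replacement, non-essential amino acids, sodium pyruvate, penicillin, streptomycin and beta-mercaptoethanol, with no feeder cells named in the labels. LIF is the cytokine that keeps mouse ES cells undifferentiated, and the comparison addresses which transcripts depend on its signalling. The labels number the arrays 1 and 2 in each group and do not say that they came from separate cultures, so p-values measure only how far these arrays differ, perhaps for technical reasons, and all values are of 1 cell line.

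Amino acid carriers work as a network. Exchangers swap one amino acid for another and set the mixture inside the cell, while carriers coupled to sodium or protons load it against a gradient. Several Slc7 carriers are light chains that reach the cell surface only when bound to a heavy chain of the Slc3 family. When amino acids run short, the kinase Eif2ak4 (GCN2) and the transcription factor Atf4 raise transcripts of many carriers, and the kinase complex mTORC1 reads the supply at the lysosome. Mouse ES cells are known for their dependence on threonine and glutamine and for responding to proline taken up through Slc38a2. Not every gene of these families carries an amino acid, since Slc6a2, Slc6a3 and Slc6a4 take up monoamines, Slc6a8 takes up creatine and Slc43a3 purine bases. The pattern also took in 3 genes that are not carriers but are named after a neighbouring one, Slc7a6os, Slc36a1os and Slc6a19os.

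The results turn on Slc6a16, Slc7a7 and Slc1a3, which had the smallest p-values of the set, and on Slc1a4, whose brightest probe set split by array number. The promoters of these 4 genes are shown because 3 motifs were searched in them, TGATGNAA of Atf4 and C/EBP factors, TTCNNNGAA of STAT factors and the E-box CACGTG. Each window runs from 250 bases before to 50 bases after an annotated start (RefSeq, GRCm38.p6), written 5′ to 3′ on the gene's own strand, with motif matches on either strand in capitals. For Slc7a7, which has 5 annotated starts, the window with the most matches is shown. The windows are chr7:45240503-45240802, plus strand for Slc6a16, chr14:54417895-54418194, minus strand for Slc7a7, chr15:8710758-8711057, minus strand for Slc1a3 and chr11:20332664-20332963, minus strand for Slc1a4.
Slc6a16: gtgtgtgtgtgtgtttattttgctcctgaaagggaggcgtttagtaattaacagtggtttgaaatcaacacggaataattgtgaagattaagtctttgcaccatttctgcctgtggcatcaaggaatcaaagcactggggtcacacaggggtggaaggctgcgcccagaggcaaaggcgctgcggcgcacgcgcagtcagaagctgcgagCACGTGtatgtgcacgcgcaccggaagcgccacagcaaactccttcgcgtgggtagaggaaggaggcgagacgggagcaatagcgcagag
Slc7a7: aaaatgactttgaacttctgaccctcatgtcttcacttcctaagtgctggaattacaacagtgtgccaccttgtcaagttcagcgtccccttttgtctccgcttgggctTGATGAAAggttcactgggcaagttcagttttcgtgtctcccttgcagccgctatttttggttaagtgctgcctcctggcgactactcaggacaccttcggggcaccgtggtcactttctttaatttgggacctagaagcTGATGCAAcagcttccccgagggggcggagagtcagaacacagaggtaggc
Slc1a3: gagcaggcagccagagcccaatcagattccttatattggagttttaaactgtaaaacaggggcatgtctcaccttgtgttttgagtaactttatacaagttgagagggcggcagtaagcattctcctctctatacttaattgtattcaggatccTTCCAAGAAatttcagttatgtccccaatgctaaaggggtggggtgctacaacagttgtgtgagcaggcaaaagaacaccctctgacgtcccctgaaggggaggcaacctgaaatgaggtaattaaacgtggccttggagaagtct
Slc1a4: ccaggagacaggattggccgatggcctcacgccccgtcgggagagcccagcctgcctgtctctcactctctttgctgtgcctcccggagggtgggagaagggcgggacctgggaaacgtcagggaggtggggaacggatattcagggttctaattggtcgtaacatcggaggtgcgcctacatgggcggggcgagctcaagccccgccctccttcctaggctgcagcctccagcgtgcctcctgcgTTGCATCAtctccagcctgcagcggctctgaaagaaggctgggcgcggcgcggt
The Slc6a16 window holds 1 E-box, that of Slc1a3 holds 1 STAT motif and that of Slc1a4 holds 1 copy of TGATGNAA on the other strand, across the start itself. The Slc7a7 window holds 2 copies of TGATGNAA, one of them also across the start. RefSeq windows were matched for 46 of the 63 genes, 67 windows in all. TGATGNAA stood in 5 of these windows (7.46%) and in 3.97% of all 32851. The STAT motif stood in 5 (7.46%) and in 8.3% of all, and the E-box in 9 (13.4%) and in 7.15% of all. Of the 4 genes with TGATGNAA, 3 lay above the filter on low signals given below. So did 4 of the 5 with a STAT motif and 5 of the 9 with an E-box. A match is a description of the letters only, and no letter in these 4 windows belonged to more than 1 motif.

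Of the 63 genes, 45 lay above the filter on low signals (a mean log2 signal of 4.51, which is a signal of 22.9) and 18 were dim and not tested. The 45 include Slc7a6os, which is not a carrier. Of the 45, 7 read below the array's median signal on all 4 arrays and are called low here: Slc38a3, Slc7a8, Slc7a11, Slc1a7, Slc3a1, Slc6a7 and Slc6a14. Signals of different probe sets do not compare transcript levels between genes, so each gene is compared only with itself. With total RNA of whole cultures, fewer cells of a type and less RNA per cell cannot be told apart.

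No carrier passed the test across all genes. In limma with Benjamini-Hochberg adjustment over 14445 genes, 0 of 45 had an adjusted p of 0.05 or less, against 0.145% of all genes tested. At an unadjusted p of 0.05 or less there were 6, 4 higher and 2 lower without LIF, against 7.16% and 3.73% of all genes. In 15 of 45 both arrays without LIF lay above both with LIF and in 6 both lay below, which is 33.3% and 13.3% of them against 27.3% and 15.2% of all genes. These shares lie near those of all genes. The median log2 difference (without LIF minus with LIF) of the 45 was 0.23, with a range of -2.06 to 1.89, and the median of all genes tested was 0.09. Setting all arrays to a common median moved the median of all genes by -0.29, which put it at -0.20 and that of the 45 at -0.06. The number of genes with a positive difference was then 20 of 45 in place of 32. Without that step, 8578 of all 14445 genes tested had a positive difference.

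**Figure D1:**
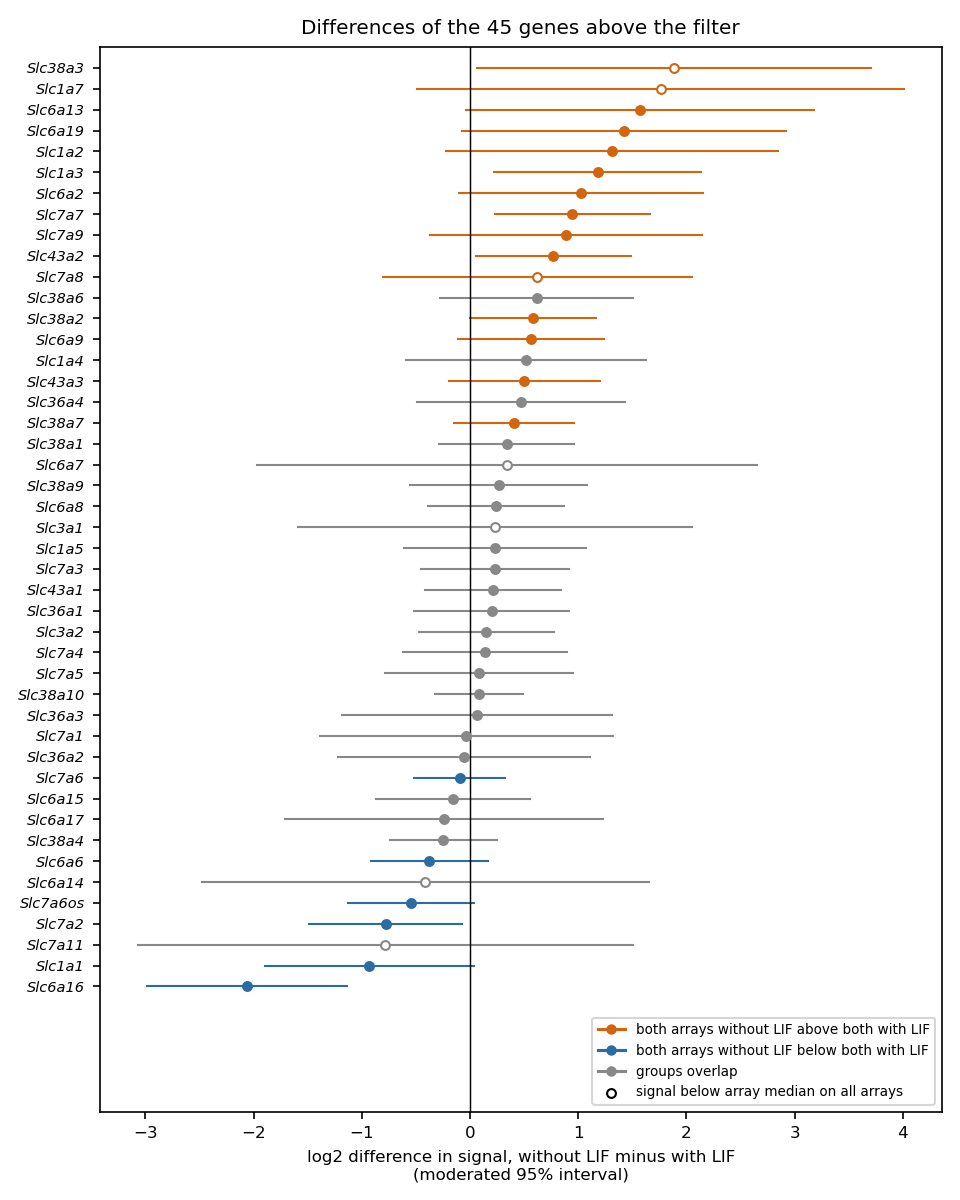
Log2 difference in MAS5 signal, without LIF minus with LIF (x axis), for the 45 genes above the filter (y axis), with the moderated 95% interval from limma. Orange marks the 15 genes whose arrays without LIF both lay above those with LIF, blue the 6 whose arrays both lay below, grey those whose groups overlapped, and open points low signals. Slc6a16 stands lowest at -2.06 with an interval of -2.99 to -1.13, and the intervals of the 6 genes at an unadjusted p of 0.05 or less leave out 0.

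Control probe sets split the arrays by number rather than by LIF. The 18S ribosomal RNA 3' probe set read 451 and 2990.4 on arrays 1 and 2 without LIF, against 462 and 5150.4 with LIF, and the added control dap (3' probe set) read 1172 and 515 without LIF, against 2198.5 and 545 with LIF. Differences within each number are therefore given beside the pooled ones. The 7 ES cell markers all lay above the filter, with summed signals of 59692 and 83986 without LIF and 102546 and 122378 with LIF. Both arrays without LIF lay below both with LIF for 5 of the 7, against 15.2% of all genes. The groups overlapped for Pou5f1 (log2 difference 0.02) and Dppa5a (-0.10). Of markers of other cell types, 9 of 9 for primitive endoderm lay above the filter, with sums of 3378 and 13917 without LIF and 2667.5 and 6701 with LIF. For neuroectoderm 4 of 4 did, with sums of 2523 and 872 without LIF and 964.5 and 508 with LIF, and for fibroblasts 5 of 6 did, with sums of 858 and 448 without LIF and 607 and 277 with LIF. None of these markers was listed at 0. The part of such cells in the results was not tested.

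Slc6a16, an orphan member of the neurotransmitter carrier family with no established substrate, had the smallest p-value of the carriers. Its only probe set read 48.2 and 67.3 without LIF, against 273 and 207 with LIF. Both arrays without LIF were far below both with LIF, and on array 1 without LIF the signal lay below that array's median of 95.5. On the log2 scale the difference was -2.06 (4.17-fold lower; SE 0.39; limma, adjusted p = 0.11), with -2.50 between the arrays numbered 1 and -1.62 between those numbered 2. With the array number as a term in the fit the adjusted p was 0.0084, and 1 of the 45 genes passed as lower in that fit, against 2.62% of all genes. It also passed in fits without the array numbered 1 (-1.82, adjusted p = 0.037) or 2 (-2.30, adjusted p = 0.0094) of the cells lacking LIF, and with arrays at a common median (-2.35, adjusted p = 0.0098). It did not pass without the array numbered 1 (-1.86, adjusted p = 0.44) or 2 (-2.26, adjusted p = 0.41) of the cells with LIF. In the fits it passed, the calls over all genes also became more numerous, from 131 to 975 in place of 21.

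**Figure D2:**
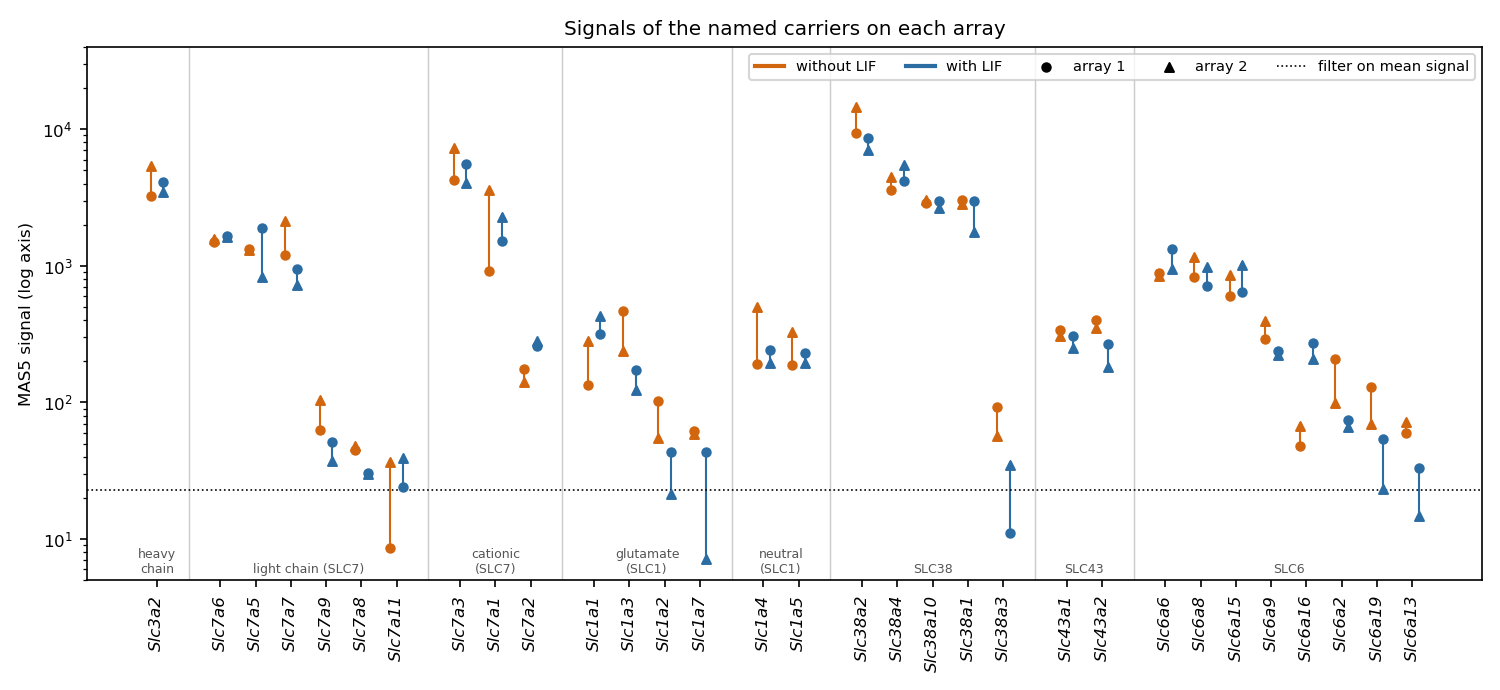
MAS5 signals on a log axis for the named carriers (x axis, grouped by role), with orange for without LIF and blue for with LIF, circles for array 1 and triangles for array 2, joined within a group. The groups stand apart for Slc6a16, Slc7a7 and Slc1a3, while Slc7a1 spans 924 and 3579.7 without LIF around 1526 and 2271 with LIF. The dotted line is the filter on the mean signal.

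The heavy chains did not differ detectably. Slc3a2 (4F2hc, CD98), which carries most Slc7 light chains to the surface, read 3226 and 5397 without LIF, against 4101 and 3446 with LIF. The array numbered 2 without LIF was the highest and the array numbered 1 without LIF the lowest, so the groups overlapped fully. This gave a log2 difference of 0.15 with a 95% interval of -0.48 to 0.78. Slc3a1 (rBAT), the heavy chain of the cystine and basic amino acid carrier, was low, and its groups overlapped.

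Among the light chains Slc7a7 (y+LAT1), which exchanges cationic for neutral amino acids with sodium, read higher without LIF. Its signals were 1202 and 2114 without LIF, against 945 and 727 with LIF. Both arrays without LIF stood above both with LIF, and array 2 without LIF was the highest by a wide margin. The log2 difference was 0.94 (1.92-fold; SE 0.30; limma, adjusted p = 0.32), with 0.35 between the arrays numbered 1 and 1.54 between those numbered 2. A second probe set read 876 and 1241 without LIF, against 667 and 555 with LIF, also with the groups apart. Slc7a7 and Slc1a3 were the 2 of the 45 genes that passed as higher with the array number as a term, against 4.13% of all genes, and Slc7a7 had an adjusted p of 0.04 there. Its difference was 1.35 with array 1 of the cells without LIF dropped and 0.54 with array 2 of those cells dropped. The summed primitive endoderm markers given above were also highest on array 2 without LIF. Their sum was next highest on array 2 with LIF (6701), where Slc7a7 read lowest. The part of such cells in the Slc7a7 difference was not tested.

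The other light chains gave no call. Slc7a5 (LAT1), the carrier of leucine and other large neutral amino acids, read 1337 and 1310.2 without LIF, against 1883 and 826 with LIF. Its arrays with LIF enclosed both arrays without LIF, and the log2 difference was 0.086 (95% interval -0.78 to 0.95). Slc7a6 (y+LAT2), the close relative of Slc7a7, read 1503 and 1563 without LIF, against 1665 and 1614 with LIF. Its groups did not overlap but lay only -0.097 apart on the log2 scale, with an interval of -0.51 to 0.32. Slc7a9 (b0,+AT), which pairs with Slc3a1, read 62.9 and 104 without LIF, against 51.3 and 37.3 with LIF (0.89, SE 0.53). Slc7a8 (LAT2) was low at 44.9 and 47.9 without LIF, against 30.5 and 29.8 with LIF. Both read higher on each array without LIF, by less than their intervals could set apart from 0. Slc7a11 (xCT), which imports cystine for glutathione, was low at 8.6 and 36.5 without LIF, against 23.9 and 38.9 with LIF, with overlapping groups, and its size of change is uncertain at signals around the filter.

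Among the cationic amino acid carriers Slc7a2 read lower without LIF. Slc7a2 (CAT2), an arginine and lysine carrier, read 176 and 141 without LIF, against 261 and 281 with LIF. Both arrays without LIF lay below both with LIF, and the log2 difference was -0.78 (SE 0.30; limma, adjusted p = 0.41). Of its 3 other probe sets, all dimmer, 1 read higher (0.38) and 2 read -0.21 and -0.07. Slc7a3 (CAT3), the brightest cationic probe set, read 4257 and 7304 without LIF, against 5568 and 4070.3 with LIF, and Slc7a1 (CAT1), the general arginine carrier, read 924 and 3579.7 without LIF, against 1526 and 2271 with LIF. The groups overlapped in both genes, and for Slc7a1 the arrays without LIF lay on either side of the arrays with LIF. The Slc7a1 difference was -0.72 between the arrays numbered 1 and 0.66 between those numbered 2, and its pooled interval ran over -1.39 to 1.32.

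Carriers of glutamate read in both directions. Slc1a3 (GLAST), known in glia and in neural progenitors, read 468 and 237 without LIF, against 174 and 124 with LIF. Each array without LIF lay above both with LIF, and array 1 without LIF was the highest. On the log2 scale the difference was 1.18 (2.27-fold; SE 0.40; limma, adjusted p = 0.35), with 1.43 between the arrays numbered 1 and 0.94 between those numbered 2, and the adjusted p was 0.025 with the array number as a term. The difference was 1.67 with array 2 of the cells without LIF dropped and 0.69 with array 1 of those cells dropped. Of its 6 probe sets, 5 had the groups apart in the same direction, with log2 differences of 0.51 to 2.36, and 1 read -0.10. The summed neuroectoderm markers given above were also highest on array 1 without LIF and lowest on array 2 with LIF. The median signal of all probe sets followed the same extremes, at 95.5 on array 1 without LIF and 59.6 on array 2 with LIF. Of all genes tested, 35.8% read highest on array 1 without LIF. The part of the neuroectoderm markers in the Slc1a3 difference was not tested.

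Slc1a1 (EAAC1, EAAT3), a glutamate and cysteine carrier, read the other way. Its signals were 133 and 282 without LIF, against 317 and 430.3 with LIF. Both arrays without LIF were below both with LIF, although the lower array with LIF stood near the higher one without LIF. This gave a log2 difference of -0.93 (SE 0.41; limma, adjusted p = 0.48), with -1.25 between the arrays numbered 1 and -0.61 between those numbered 2, and its other probe sets read -0.52 and -0.30. The difference was -1.47 with array 2 of the cells without LIF dropped and -0.39 with array 1 of those cells dropped. The difference between Slc1a3 and Slc1a1 was itself not tested. Slc1a2 (GLT-1), the main glutamate carrier of astrocytes, read 103 and 54.9 without LIF, against 43.4 and 21.2 with LIF, and Slc1a7 (EAAT5), known in the retina, was low at 61.9 and 58.4 without LIF, against 43.7 and 7.2 with LIF. Both stood higher without LIF on each array, but each had an array with LIF below the filter signal, so their sizes of 1.31 and 1.76 are uncertain.

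The brightest probe sets of the neutral amino acid exchangers of the Slc1 family split by array number. Slc1a4 (ASCT1), a carrier of alanine, serine and cysteine, read 190.1 and 504 without LIF, against 243 and 193 with LIF. Only array 2 without LIF stood above the others. The log2 difference was -0.35 between the arrays numbered 1 and 1.39 between those numbered 2, and 0.52 pooled (SE 0.47). The split was not seen in 1 of its 2 other probe sets (log2 difference 1.11). There the groups were apart at 252 and 451 without LIF, against 134 and 182.5 with LIF. Slc1a5 (ASCT2), the glutamine exchanger, read 188 and 327 without LIF, against 231 and 194 with LIF, in the order of the brightest Slc1a4 probe set. Its pooled difference was 0.23, and -0.064 with arrays at a common median.

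Of the Slc38 family (SNAT carriers of glutamine, alanine and related amino acids), 9 genes were members and 8 were above the filter, 7 with a positive difference. Over all genes tested, 8578 of 14445 had a positive difference. With arrays at a common median, Slc38a9 turned to -0.030 and Slc38a10 to -0.21. Slc38a2 (SNAT2), the carrier induced by amino acid shortage, read 9313 and 14647 without LIF, against 8628 and 7043 with LIF. Each array without LIF was above both with LIF, narrowly for array 1 and clearly for array 2. On the log2 scale the difference was 0.58 (SE 0.25; limma, adjusted p = 0.46), with 0.11 between the arrays numbered 1 and 1.06 between those numbered 2. The difference was 0.91 with array 1 of the cells without LIF dropped and 0.26 with array 2 of those cells dropped. Its other probe sets read 0.43 and 0.82.

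For Slc38a2, Slc7a7, Slc1a3 and Slc1a1, a fit with an array dropped leaves 1 array in a group, so only sizes are given. The remaining Slc38 genes gave no call under the settings run. Slc38a1 (SNAT1), a glutamine carrier, read 3045 and 2814 without LIF, against 3007 and 1779 with LIF, and array 2 with LIF alone stood low. Slc38a4 (SNAT4), an imprinted carrier, read 3574 and 4479 without LIF, against 4153 and 5429 with LIF (-0.25, interval -0.74 to 0.25), and its other probe set had the groups apart at -0.35. The signals of Slc38a10 differed least among the named members of the family, at 2884 and 3047 without LIF, against 2963 and 2651 with LIF. This gave a log2 difference of 0.081, with an interval of -0.32 to 0.49. The lysosomal members Slc38a7, a glutamine exporter, and Slc38a9, the arginine sensor of mTORC1, had positive differences, as did Slc38a6, with the groups apart for Slc38a7 alone. Slc38a3 (SNAT3), the glutamine carrier of liver and astrocytes, was low at 92 and 56.8 without LIF, against 11 and 34.8 with LIF. It had the largest positive difference of the 45 (1.89, SE 0.77; limma, adjusted p = 0.44), which rests on a signal below the filter on array 1 with LIF. That difference was 1.30 with a pseudocount of 14.3, and its dim second probe set read 2.30.

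All 3 members of the Slc43 family read higher without LIF, as did 8578 of the 14445 genes tested. Slc43a1 turned to -0.081 with arrays at a common median. Slc43a2 (LAT4), which lets branched-chain amino acids and phenylalanine leave the cell, read 399.9 and 353 without LIF, against 269.6 and 181 with LIF. Both arrays without LIF were above both with LIF. The log2 difference was 0.77 (SE 0.30; limma, adjusted p = 0.42), with 0.57 between the arrays numbered 1 and 0.97 between those numbered 2, and the next probe set read 0.66 with the groups apart. Slc43a1 (LAT3), a carrier of the same kind, read 337 and 306 without LIF, against 306 and 251 with LIF, with overlapping groups. The groups were apart for Slc43a3. The 4 proton-coupled carriers of the Slc36 family had log2 differences of -0.056 to 0.47, and the groups overlapped for each of them.

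The Slc6 family gave the most members, 20 carriers, of which 9 were dim. Its bright members gave no call. Slc6a6, the taurine carrier, read 886 and 838 without LIF, against 1319 and 951 with LIF. Both arrays without LIF lay below both with LIF, with a log2 difference of -0.38 (interval -0.92 to 0.16). Its other probe sets, all dimmer, read -0.15, -1.49 and 0.39, with the groups apart only at -1.49. Slc6a8, the creatine carrier, read 825 and 1167 without LIF, against 706 and 980.3 with LIF, with overlapping groups. The pattern followed the array number, since array 2 was higher than array 1 in both groups. Slc6a15 (B0AT2), a carrier of branched-chain amino acids and proline, did so too, at 601 and 859 without LIF, against 638 and 1007 with LIF. Slc6a9 (GlyT1), the glycine carrier, read 289 and 394 without LIF, against 237 and 221 with LIF. Both arrays without LIF stood above both with LIF (0.56, SE 0.29; limma, adjusted p = 0.54), and its second probe set read 1.30 with the groups apart.

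Other Slc6 genes with higher readings had weak signals. Slc6a2, the noradrenaline carrier, read 208 and 98.9 without LIF, against 74.7 and 66.3 with LIF, Slc6a19 (B0AT1), the neutral amino acid carrier of kidney and gut, read 129.6 and 69.2 without LIF, against 53.6 and 23.3 with LIF, and Slc6a13 (GAT2), a GABA and taurine carrier, read 59.6 and 72.2 without LIF, against 33.2 and 14.7 with LIF. In all 3 the groups were apart, and their log2 differences of 1.03, 1.42 and 1.57 did not pass (limma, adjusted p = 0.50, 0.48 and 0.47). By size alone, 7 of 45 genes read at least 2-fold higher with the groups apart (Slc1a3, Slc1a2, Slc1a7, Slc6a2, Slc6a19, Slc6a13 and Slc38a3) and 1 at least 2-fold lower (Slc6a16), which is 15.6% and 2.22% of them against 7.36% and 2.12% of all genes tested. The split was 4 higher and 2 lower with quantile normalization and 5 and 3 with arrays at a common median, and with a filter at the 50th percentile, which keeps brighter genes, it was 2 and 1. Of the higher ones, 4 had an array with LIF below the filter signal (Slc1a2, Slc1a7, Slc6a13 and Slc38a3), so no weight is put on their number.

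The 18 dim members were Slc1a6, Slc38a5, 9 Slc6 carriers (Slc6a3, Slc6a4, Slc6a5, Slc6a11, Slc6a12, Slc6a18, Slc6a20a, Slc6a20b and Slc6a21), 5 Slc7 genes (Slc7a10, Slc7a12, Slc7a13, Slc7a14 and Slc7a15) and 2 of the genes that are not carriers (Slc6a19os and Slc36a1os). Most are known as carriers of neurons, kidney or gut. Their signals ran from 1.6 to 68.8, and no fold is given for them. Beside the carriers named with values, 13 others above the filter had log2 differences of -0.41 to 0.61, with the groups apart for Slc43a3 and Slc38a7. Slc7a6os, the third gene that is not a carrier, read 398 and 547 without LIF, against 667 and 694 with LIF (-0.54, SE 0.25).

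Some genes read in opposite directions in the 2 array numbers. In 8 of the 45 genes the array numbered 1 without LIF read lower than its counterpart with LIF while the array numbered 2 read higher: Slc3a2, Slc7a1, Slc7a3, Slc7a5, Slc1a4, Slc1a5, Slc38a10 and Slc6a7. Their share of 17.8% was near the 15.6% of all genes tested, and this count was made after the values had been seen. The other way round, higher in the arrays numbered 1 and lower in those numbered 2, were 5 genes (Slc36a1, Slc36a3, Slc36a4, Slc6a17 and Slc7a4), which is 11.1% against 19.2% of all genes. The same direction within both numbers was found for 31 of 45, or 68.9%, against 65% of all genes. The median difference of the 45 was 0.22 between the arrays numbered 1 and 0.48 between those numbered 2.

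**Figure D3:**
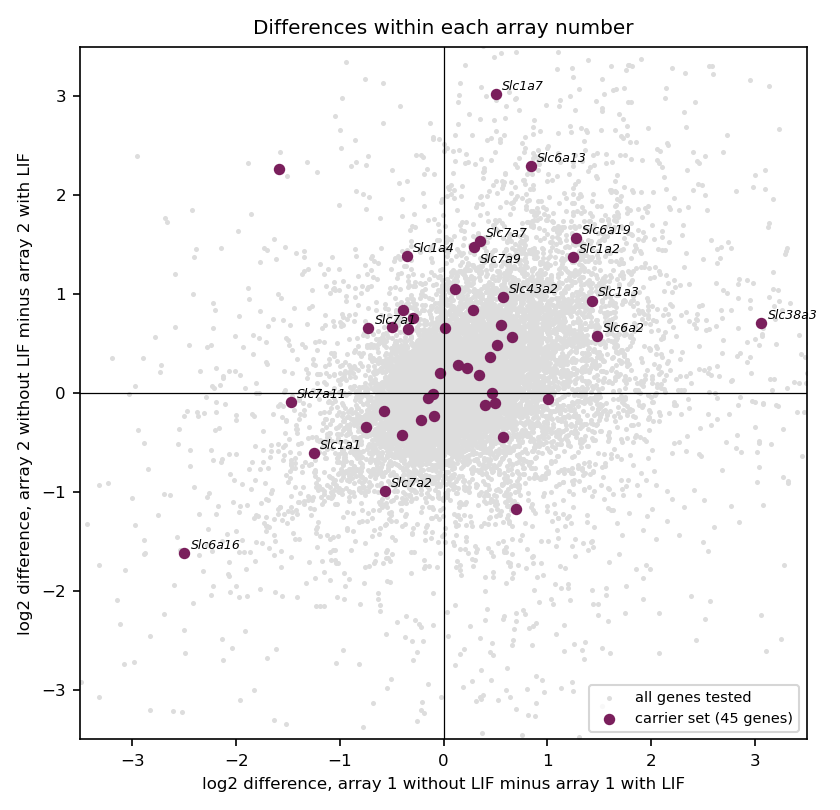
Log2 difference without LIF minus with LIF between the arrays numbered 1 (x axis) and between those numbered 2 (y axis), for the 45 genes of the carrier set (purple) and all genes tested (grey, 116 of them outside the axes). Slc6a16 lies low on both axes, Slc1a3 high on both, and Slc7a1 and Slc1a4 are below 0 on the x axis and above 0 on the y axis.

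Genes of the amino acid response, meaning its kinase, its factors and the targets that Atf4 induces, mostly read highest on array 2 without LIF, which was noticed in these values. All 27 listed genes with a probe set were above the filter, and 0 passed in limma, with 3 at an unadjusted p of 0.05 or less, against 10.9% of all genes. With the array number as a term 3 passed as higher and 1 as lower, against 4.13% and 2.62% of all genes. Their median difference was 0.23, with -0.14 between the arrays numbered 1 and 0.70 between those numbered 2. The highest signal fell on array 2 without LIF for 23 of the 27 genes, which is 85.2% of them, against 14 of the 45 genes of the carrier set (31.1%) and 26.8% of all genes tested. Ddit4, an inhibitor of mTORC1, read 1624 and 3337 without LIF, against 1146 and 1056 with LIF, and Herpud1, a stress gene of the endoplasmic reticulum, read 611 and 919 without LIF, against 442 and 409 with LIF. Sesn2, the leucine sensor, read 747 and 691 without LIF, against 592 and 227 with LIF. Each had the groups apart and none passed (limma, adjusted p = 0.29, 0.33 and 0.48). Jdp2, a bZIP factor of the list, read lower at 138 and 211 without LIF, against 383 and 381 with LIF. The 14 genes of the carrier set highest there were Slc3a2, Slc7a1, Slc7a3, Slc7a7, Slc7a8, Slc7a9, Slc1a4, Slc1a5, Slc38a2, Slc38a6, Slc38a10, Slc6a8, Slc6a9 and Slc6a13. Their share of 31.1% lay near that of all genes. More of the carrier set, 17 of 45 (37.8%), read highest on array 1 without LIF, against 35.8% of all genes tested. Slc7a5 read highest on array 1 with LIF (1883) and Slc7a11 on array 2 with LIF (38.9).

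**Figure D4:**
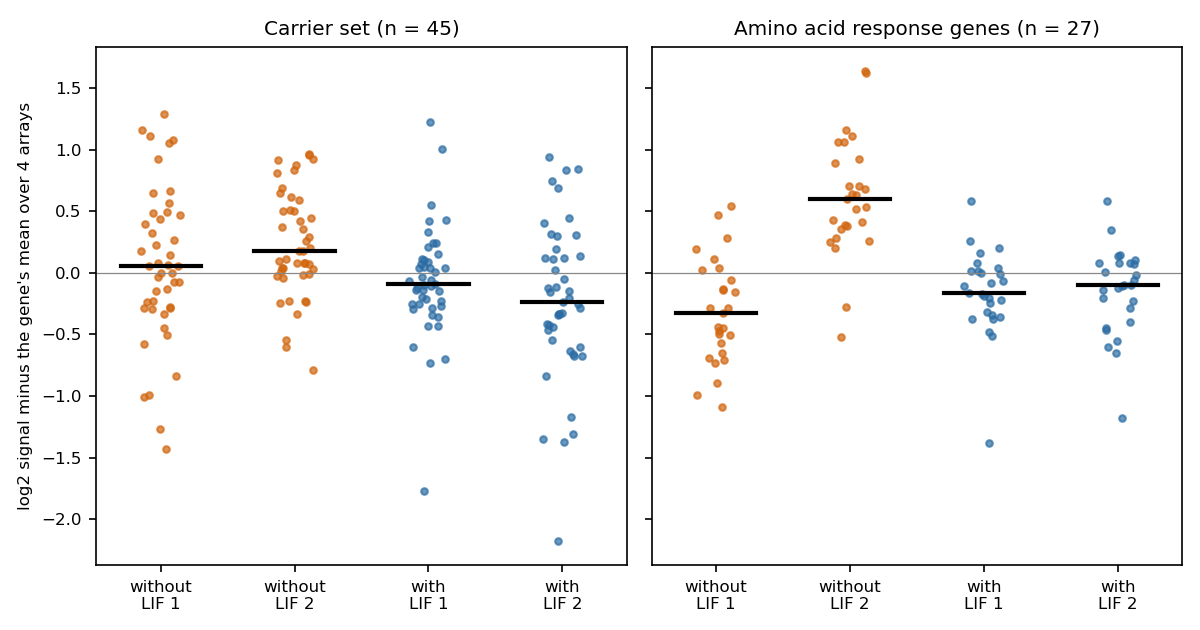
Log2 signal of each gene minus its own mean over the 4 arrays (y axis), for the 45 genes of the carrier set and the 27 amino acid response genes, by array (x axis), with a bar at the median. The response genes have a median of 0.60 on array 2 without LIF and of -0.32 on array 1 without LIF, while the medians of the carrier set lie between -0.24 and 0.18.

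Genes of mTORC1, its regulators and the amino acid sensors that act on it had 36 members above the filter and 0 calls in limma. Of these, 4 had an unadjusted p of 0.05 or less (against 10.9% of all genes, so a share near the background), and the median was 0.02. Sesn3, a relative of the leucine sensor Sesn2, read 784 and 1011 without LIF, against 307 and 283 with LIF. Its arrays without LIF were well above those with LIF (1.60, SE 0.24; limma, adjusted p = 0.069, and 0.0011 with the array number as a term). The Rag GTPase Rragd, which relays the signal at the lysosome, read 2893 and 1956 without LIF, against 1242 and 1032 with LIF (1.07), and Castor2, of the arginine sensor family, read 233 and 209.6 without LIF, against 93.7 and 77.9 with LIF (1.37). Sesn1 read the other way, at 1033 and 959.9 without LIF, against 1306 and 1863 with LIF (-0.65). Rragd and Castor2 passed with the array number as a term and Sesn1 did not (limma, adjusted p = 0.0018, 0.029 and 0.058). In that fit 3 of the 36 passed as higher and 0 as lower, against 4.13% and 2.62% of all genes.

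Enzymes that use the carried amino acids, and oxidative stress genes listed with them, gave no call in limma. The 18 cytosolic aminoacyl-tRNA synthetases, which charge tRNAs, had a median of -0.03 and 0 calls, with 1 at an unadjusted p of 0.05 or less (against 10.9% of all genes), Rars, at 5235 and 5047 without LIF, against 6936 and 6579 with LIF. The next list joined genes of glutamine and glutathione metabolism with oxidative stress genes such as Hmox1. Of its 15 tested genes 0 passed, and 5 had an unadjusted p of 0.05 or less, against 10.9% of all genes. Among them Gclc, the catalytic subunit that starts glutathione synthesis, read 1988 and 1772 without LIF, against 1456 and 1178 with LIF (0.52), and Gss, the enzyme of the next step, read 468 and 511 without LIF, against 777 and 739 with LIF (-0.63). Hmox1, a target of the oxidative stress factor Nfe2l2, read 2135 and 4116 without LIF, against 1556 and 1721 with LIF, and Got1, the cytosolic aspartate aminotransferase, read 4015 and 5819.8 without LIF, against 6552 and 7754 with LIF. The last 2 passed with the array number as a term (limma, adjusted p = 0.018 and 0.023). In that fit 1 of the 15 passed as higher and 1 as lower, against 4.13% and 2.62% of all genes.

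Regulators of the carriers and carriers outside these families completed the lists. Sgk1, a kinase that keeps several of these carriers at the surface, read 3546 and 5429 without LIF, against 8232 and 10707 with LIF. Its arrays without LIF were both below those with LIF (-1.10, SE 0.25; limma, adjusted p = 0.16, and 0.00046 with the array number as a term). The ubiquitin ligase Nedd4l, which is restrained by Sgk1, read 608 and 651 without LIF, against 990.1 and 869 with LIF (-0.56), and Cd44, which stabilises the Slc7a11 protein, read 95.1 and 88.1 without LIF, against 28 and 24.9 with LIF (1.79). Of the 6 tested genes of that list 0 passed, 3 had an unadjusted p of 0.05 or less (against 10.9% of all genes) and the median was -0.10. With the array number as a term 1 of the 6 passed as lower and 0 as higher, against 2.62% and 4.13% of all genes. Of 7 tested amino acid and peptide carriers of other families 0 passed, 1 had an unadjusted p of 0.05 or less (against 10.9% of all genes) and the median was 0.15. That gene, the peptide carrier Slc15a1 (PEPT1), read 54.6 and 36.7 without LIF, against 186 and 145 with LIF (-1.88, SE 0.44). It passed with the array number as a term (limma, adjusted p = 0.023). In that fit 1 of the 7 passed as lower and 0 as higher, against 2.62% and 4.13% of all genes. Ctns, the lysosomal cystine exporter, read 384 and 376 without LIF, against 224 and 295 with LIF.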

How the data were processed

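The authors deposited MAS5 signal intensities on a linear scale, 1 column per array, per the submitters' processing notes; the linear scale was read from the values, and the MAS5 version and the genome build are not given in the sources used here. Each array had a mean of 500.003 to 500.004 after trimming 2% at each end. Of 45101 probe sets, 64 controls, 932 with several symbols and 9160 with none were left out; 34945 gave 18193 genes. All 63 members matched RefSeq (GRCm38.p6) by Entrez identifier, with 0 symbols changed. The 1 value at or below 0 was raised to 0.1. Genes above the 30th percentile of mean log2 signal (4.51) entered limma (version 3.58.1, run in R version 4.3.3; lmFit, eBayes with a trend, two-sided, 2 residual degrees of freedom), adjusted over 14445 genes. The fit was checked on simulated data with independent noise and no effect of the array number, so that check does not cover such an effect. With 4 arrays, their number limits the precision.

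Members, lists, named genes and tests were chosen with earlier results of these data known. Members were named when they passed with or without the array number as a term, when their groups were apart by at least 0.6 (log2), by a fixed list of 12, and, from the rest, the 5 brightest; from each other list the 4 genes with the smallest p could be named. Plots used Python 3.11.15 and matplotlib 3.10.9. Alternatives were other filters, a pseudocount of 14.3, quantile normalization, a common median, eBayes without a trend or robust, other probe set choices, each array left out in turn, the array number as a block, and an adjusted p of 0.1.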

Additional observations from a re-analysis of the deposited data

How the results depend on the processing

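Of the 45 genes (Slc7a6os included) 0 passed in limma, and 0 passed with a 50th percentile filter, no filter, a pseudocount, quantile normalization, no trend, robust eBayes, the mean of probe sets, plain probe sets or an adjusted p of 0.1. With a common median 1 passed (Slc6a16), and with each array left out 0 to 3. With the array number as a replicate block 3 passed (Slc6a16, Slc7a7 and Slc1a3). The labels give the numbers no meaning beyond the replicate, and deviations from the group means of same-numbered arrays correlated at 0.29 over all genes and 0.14 over the 45. Over all genes the calls numbered 21, with 0 without the trend, 10 with quantile normalization, 12 with the mean of probe sets, 40 with the pseudocount, 41 with the 50th percentile filter, 52 with robust eBayes, 131 with a common median, 140 at an adjusted p of 0.1 and 975 with the block, and 7 to 496 with each array left out. Genes of the 45 that were 2-fold apart numbered 8, with 15 without a filter, 3 at the 50th percentile filter and 3 to 16 with each array left out. The median of the 45 was 0.23, and -0.062 with a common median. Signs turned for 12 named carriers. With a common median the log2 differences were -0.064 for Slc1a5, -0.21 for Slc38a10, -0.14 for Slc3a2, -0.081 for Slc43a1, -0.055 for Slc6a8, -0.065 for Slc7a3 and -0.21 for Slc7a5, and with the mean of probe sets -0.018 for Slc1a5. With each array left out in turn they ran over -0.19 to 1.22 for Slc1a4, -0.17 to 0.63 for Slc1a5, -0.039 to 0.72 for Slc38a1, -0.22 to 0.52 for Slc3a2, -0.49 to 0.17 for Slc6a15, -0.012 to 0.49 for Slc6a8, -1.01 to 0.94 for Slc7a1, -1.83 to 0.26 for Slc7a11, -0.16 to 0.62 for Slc7a3 and -0.51 to 0.68 for Slc7a5. The cause was not tested for any of these. A fit with an array left out assumes that the lone array of a group varies like the other group. Low signals limit Slc7a11, which fell below the filter with quantile normalization and with the pseudocount.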
